A study of Mus musculus with 6 samples.

Results

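The natural killer (NK)-like cells of mouse skin wounds were 59 of 11032 wound cells kept after filtering. They were chosen by UMIs (unique molecular identifiers, 1 per captured RNA molecule) of at least 3 of 9 genes: the granzymes Gzma, Gzmd, Gzme, Gzmf and Gzmg, the pore-forming protein perforin (Prf1), and the NK receptors Klra4, Klra8 and Klrb1c. At most 1 of the CD3 chain genes Cd3e, Cd3d and Cd3g, which mark T cells, was allowed. The rule found 15 cells among 1948 in the wound given control DCs, 25 among 5681 in the wound given Ndrg2-KO DCs and 19 among 3403 in the wound given a blank hydrogel. The levels of these 9 genes are therefore given below as a description, and no test is made of them.

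NK cells are lymphocytes that kill infected or transformed cells without a rearranged antigen receptor. Their granules hold perforin, which opens a way into the target cell, and granzymes, serine proteases that act inside it. Whether an NK cell fires is set by a balance of inhibitory and activating receptors, among them the Ly49 (Klra), NKG2 (Klrc, Klrd1, Klrk1) and NKR-P1 (Klrb1) families.

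The study asked how hydrogels seeded with dendritic cells (DCs) lacking Ndrg2 act on the cells of a healing wound. By the study's text, splinted full-thickness excisional wounds of wild-type C57BL/6J mice, 6 weeks old and of both sexes, received a collagen-pullulan hydrogel, and wound tissue was digested for single-cell RNA sequencing on day 10. The series' own design text speaks instead of GFP+ cells taken from wounds of parabiotic mice, which neither the sample labels nor the methods give for these libraries. If cells were sorted in this way, the shares of kept cells below are shares of sorted cells. The 3 wound groups were control DCs, called untreated in the labels and given non-targeting guide RNAs according to the methods, Ndrg2-knockout DCs, and a blank hydrogel without cells. The DCs of both seeded groups were cultured from bone marrow, so the edited cells were the applied DCs and not the NK-like cells of the host. The labels give neither strain nor sex for these libraries, and the study also wounded diabetic db/db mice. Tissue was taken from 5 mice per group by the same text. Each group was 1 library, and its cells carry no mark of the mouse they came from. No library of unwounded skin was analyzed here. The 3 other libraries were cultured DCs (untreated, vitamin D3-treated and Ndrg2-KO), in which 0 of 24051 kept cells passed the rule.

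The wound libraries held 2711, 7538 and 4027 barcodes and 32639817, 56216478 and 38354663 UMIs for control DC, Ndrg2-KO DC and blank hydrogel, in the order used throughout. The kept cells differed in depth, with medians of 10795, 4415 and 5603 UMIs. Ndrg2 stood at 4.62 CPM (UMIs per 1000000 UMIs) in the untreated DC culture, at 0.884 CPM in the Ndrg2-KO culture and at 1.42 CPM in the vitamin D3 culture, and no NK-like cell held a Ndrg2 UMI. With 1 library per group, no difference between wounds has a replicate check, and the ratios between libraries below compare 3 libraries and not 3 treatments. Intervals cover counting error only.

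The members whose granzymes set them apart most carried genes of 1 stretch of chromosome 14. Gzmd, Gzme, Gzmf and Gzmg are close copies of one another, and Gzmc and Gzmb are their neighbors. All lie on the minus strand in GRCm38 (GENCODE vM21), with Gzme at chr14:56117626-56120625, Gzmd at chr14:56129556-56132608, Gzmg at chr14:56156582-56159579, Gzmf at chr14:56205263-56211417, Gzmc at chr14:56231441-56234656 and Gzmb at chr14:56258838-56262260. Gzma lies elsewhere, at chr13:113093825-113100981, and Prf1 at chr10:61297833-61304680. The promoter windows of the 4 copies and of Gzmc are printed because these 5 genes were all detected in each of the 3 cells with at least 100 UMIs of the 4 copies. Gzmc was also found in 8 other members. Each window runs from 250 bases before to 50 bases after the start given by RefSeq (GRCm38.p6), 5′ to 3′ on the gene's own strand. The windows are chr14:56132544-56132843 for Gzmd, chr14:56120576-56120875 for Gzme, chr14:56211358-56211657 for Gzmf, chr14:56159530-56159829 for Gzmg and chr14:56234608-56234907 for Gzmc. Capitals mark the Runx word TGTGGT on either strand and the cAMP-response word TGACGTCA.
Gzmd: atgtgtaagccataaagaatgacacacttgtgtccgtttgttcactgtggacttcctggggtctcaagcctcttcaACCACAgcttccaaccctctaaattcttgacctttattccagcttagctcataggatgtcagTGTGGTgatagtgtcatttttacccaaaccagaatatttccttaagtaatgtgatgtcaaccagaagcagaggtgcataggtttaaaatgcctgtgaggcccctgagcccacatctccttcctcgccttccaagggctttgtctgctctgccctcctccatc
Gzme: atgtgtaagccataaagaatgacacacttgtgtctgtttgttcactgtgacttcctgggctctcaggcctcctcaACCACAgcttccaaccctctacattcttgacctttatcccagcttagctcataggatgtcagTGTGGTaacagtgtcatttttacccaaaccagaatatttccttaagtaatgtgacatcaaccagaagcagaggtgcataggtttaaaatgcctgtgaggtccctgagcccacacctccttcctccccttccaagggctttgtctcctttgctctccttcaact
Gzmf: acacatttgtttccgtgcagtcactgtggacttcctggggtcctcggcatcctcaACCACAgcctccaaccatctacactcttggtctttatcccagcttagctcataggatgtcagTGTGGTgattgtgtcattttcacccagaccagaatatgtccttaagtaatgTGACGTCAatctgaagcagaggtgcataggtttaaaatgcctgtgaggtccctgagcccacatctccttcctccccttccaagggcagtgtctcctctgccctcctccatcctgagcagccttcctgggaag
Gzmg: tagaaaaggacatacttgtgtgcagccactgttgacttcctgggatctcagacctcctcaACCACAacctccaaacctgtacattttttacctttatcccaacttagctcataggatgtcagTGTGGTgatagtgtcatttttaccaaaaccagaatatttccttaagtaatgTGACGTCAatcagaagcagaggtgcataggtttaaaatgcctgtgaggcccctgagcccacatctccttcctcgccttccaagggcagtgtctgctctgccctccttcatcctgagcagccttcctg
Gzmc: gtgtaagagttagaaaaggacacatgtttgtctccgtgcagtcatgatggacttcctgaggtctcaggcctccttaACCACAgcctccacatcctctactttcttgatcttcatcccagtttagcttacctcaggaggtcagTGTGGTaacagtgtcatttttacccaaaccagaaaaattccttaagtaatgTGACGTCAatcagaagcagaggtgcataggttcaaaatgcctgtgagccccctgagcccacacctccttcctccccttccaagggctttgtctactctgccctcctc

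These 5 windows were 86.1% to 94.0% identical to one another over the aligned bases, with Gzmd and Gzme the closest pair. Each held 2 copies of the Runx word, 62 bases apart in the 4 copies Gzmd to Gzmg and 66 bases apart in Gzmc. Of 32544 promoter windows of the same length, 16.7% held the Runx word and 1.80% held it at least 2 times. Gzmb also held 2, 59 bases apart, while Gzma, Prf1 and Ctsg held 1 each. The word TGACGTCA, searched for after the sequences had been seen, stood once in Gzmf, Gzmg and Gzmc and in 1.80% of all windows, and not in Gzmd or Gzme. A run of 20 bases, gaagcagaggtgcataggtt, was shared by these 5 windows and by no other of the 32544. The words TATAAA (sense strand), TGAGTCA, AGGTGTGA, ACAGGAAG and TTCNNNGAA (both strands) were in none of the 5 windows, and 8.28%, 5.19%, 1.28%, 3.60% and 8.33% of all windows held them. A word match describes letters and not a bound site.

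The label was checked with 10 NK markers that the rule did not use: Ncr1, Nkg7, Klrk1, Klrd1, Klre1, Il2rb, Eomes, Tbx21, Txk and Xcl1. At least 3 of them were detected in 15 of 15, 25 of 25 and 18 of 19 members, with a median of 7 markers per cell in each library. Their summed level was 4232, 2909 and 4067 CPM in the NK-like cells and 916, 957 and 791 CPM in T cells, taken as kept wound cells with UMIs of at least 2 CD3 genes (123, 235 and 91 cells). Nkg7, a granule membrane protein of killer cells, was present in 58 of the 59 cells, and Eomes, a T-box factor of NK cells, in 47. The exception was 1 cell of the blank hydrogel wound with 4238 UMIs and none of the 10 markers, which held 815 UMIs of 6 neutrophil markers and passed the rule on 2 Gzmd, 3 Gzmf and 4 Gzmg UMIs. At least 3 NK markers were thus found in 58 of 59 cells. In 9 cells, that one included, UMIs of macrophage or neutrophil markers outnumbered those of the NK markers, so that the label held without such a mixture in 50.

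Markers of other cells were found in some members. Of 8 macrophage and 6 neutrophil markers, at least 20 UMIs of either list were counted in 0, 7 and 2 members, a limit set after the data had been seen. In the Ndrg2-KO DC wound, 6 of these cells held 119 to 532 UMIs of the macrophage list and 1 held 466 of the neutrophil list. In the blank hydrogel wound both held neutrophil UMIs, 815 and 308. Summed over members, the macrophage list stood at 45.7, 5353 and 249.9 CPM and the neutrophil list at 73.1, 1750.2 and 5947 CPM. Without these 9 cells, referred to as mixed, the sums were 45.7, 104 and 210.1 CPM for the macrophage list and 73.1, 111 and 108 CPM for the neutrophil list. The 6 keratinocyte markers were at 0 in every member, and 6 fibroblast markers summed to 165, 99.2 and 135 CPM. The NK marker sum without the mixed cells was 4232, 4307 and 4282 CPM, so the lower sum in the Ndrg2-KO DC wound was seen only with those cells included. Scrublet doublet scores in the highest 6% of a library, which with ties held 139, 358 and 245 cells, were given to 0, 5 and 2 members.

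One cell barcode was shared by members of different libraries. The cell with the most UMIs, 59185, in the Ndrg2-KO DC wound and the marker-free cell of the blank hydrogel wound carried the same barcode. The first held 1076 Gzmd, 1076 Gzmf, 1370 Gzmg and 119 Prf1 UMIs and 0 of S100a8, and the second held 0 Prf1 and 336 S100a8 UMIs. Both are among the mixed cells, so every value given without mixed cells leaves both out. Whether reads or barcodes were carried over between these libraries was not tested. Over all kept cells, 2, 2 and 3 barcodes were shared between the pairs of wound libraries.

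At their own depth, NK-like cells were 0.770% of kept cells in the control DC wound (exact 95% interval 0.432% to 1.27%), 0.440% (0.285% to 0.649%) in the Ndrg2-KO DC wound and 0.558% (0.336% to 0.871%) in the blank hydrogel wound. Depth moves these shares, since a deeper cell shows more of the 9 genes. After each cell was drawn to 1000 UMIs, 3 of 1923, 7 of 5586 and 5 of 3338 cells passed the rule. These shares were 0.156% (0.0322% to 0.455%), 0.125% (0.0504% to 0.258%) and 0.150% (0.0487% to 0.349%). A difference in NK-like share between the wounds was not detectable at this depth.

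The rule's limit cut through cells of like kind. Exactly 3 of the 9 genes were seen in 6, 9 and 6 members. A further 6, 5 and 9 cells held exactly 2 of them with at most 1 CD3 gene, and these had a median of 7, 4 and 6 NK markers and Gzma UMIs in 5, 5 and 6 cells. At least 3 of the 9 genes together with 2 or 3 CD3 genes were seen in 0, 4 and 0 cells. Among the members, 0, 4 and 1 cells held 1 CD3 gene.

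Gzma, the granzyme most widely shared by these cells, was detected in 58 of 59. Its level in the summed cells was 6005 CPM in the control DC wound (95% Poisson interval 5555 to 6483), 5502 (5232 to 5783) in the Ndrg2-KO DC wound and 4176 (3892 to 4475) in the blank hydrogel wound. Cell by cell it spread from 1341 to 24178 CPM with a median of 4488 in the control DC wound, from 39.5 to 34649 with a median of 5754 in the Ndrg2-KO DC wound, and from 0 to 8409 with a median of 4674 in the blank hydrogel wound. The 3 ranges shared the span from 1341 to 8409 CPM. The members held 85.5%, 70.3% and 86.9% of all Gzma UMIs of kept cells. Gzma UMIs were found in 2.44%, 8.51% and 3.30% of T cells, whose median depths were 6923, 5276 and 7103 UMIs beside the members' 6957, 5821 and 9647. In cells with fibroblast, macrophage or neutrophil markers, 0% to 0.25% held a Gzma UMI, at median depths from 3265 to 23365 UMIs.

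Perforin followed another pattern. Prf1 was detected in 15 of 15, 17 of 25 and 12 of 19 members, at 302 (208 to 424), 772 (673 to 882) and 156 (105 to 223) CPM in the sums. In the Ndrg2-KO DC wound, 2 cells held 83.0% of the 218 Prf1 UMIs. By the median cell the order was 292 CPM in the control DC, 198 in the Ndrg2-KO DC and 107 in the blank hydrogel wound, so the high sum of the Ndrg2-KO DC wound rested on those 2 cells.

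**Figure D1:**
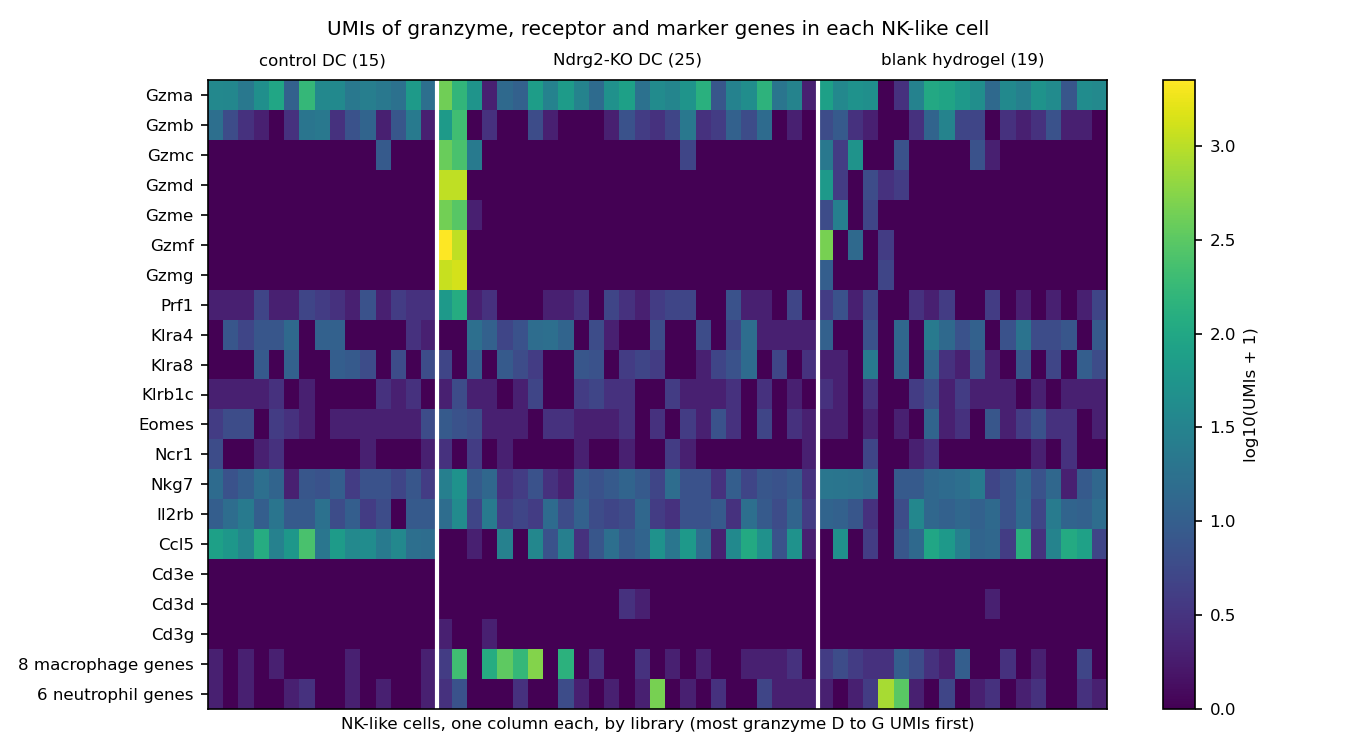
UMIs of granzyme, receptor, NK marker and CD3 genes (rows, with summed macrophage and neutrophil markers at the bottom) in each of the 59 NK-like cells, 1 column per cell by wound library (15, 25 and 19 cells), colored by log10 of UMIs plus 1. Gzma fills nearly every column, while Gzmd, Gzme, Gzmf and Gzmg are bright in 2 cells of the Ndrg2-KO DC wound and 1 of the blank hydrogel wound.

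Granzymes D to G were detected in 9 of the 59 NK-like cells. No member of the control DC wound held a UMI of any of the 4 copies, 3 of 25 did in the Ndrg2-KO DC wound and 6 of 19 in the blank hydrogel wound. One of the 3 held a single Gzme UMI, and 1 of the 6 was the marker-free cell with the shared barcode. Without mixed cells the counts were 0 of 15, 2 of 18 and 4 of 17. In cells with fibroblast, macrophage or neutrophil markers, 0% to 0.127% held a UMI of any 1 copy in the control DC wound, 0.049% to 0.534% in the Ndrg2-KO DC wound and 0% to 0.254% in the blank hydrogel wound. Those of the Ndrg2-KO DC wound each held 1 UMI. In the blank hydrogel wound, 1 such cell held 17 Gzme UMIs and 2 held 4 Gzmd UMIs between them. Members with few UMIs of the 4 copies are therefore not told from this background. T cells held some as well, with 12 Gzmf UMIs in 1 cell of the control DC wound and 69 in 2 cells of the Ndrg2-KO DC wound. The summed levels were 0, 7557 and 406 CPM for Gzmd, 0, 2618 and 187 for Gzme, 0, 11773 and 2463 for Gzmf, and 0, 9038 and 67.7 for Gzmg. A count of 0 in the control DC wound allowed up to 27.4 CPM (3 UMIs). In the Ndrg2-KO DC wound 2 cells held all Gzmd, Gzmf and Gzmg UMIs of the members and 738 of 739 Gzme UMIs. One cell of the blank hydrogel wound held 457 of 473 Gzmf UMIs and 65 of 78 Gzmd UMIs.

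The first of these cells, in the Ndrg2-KO DC wound, had 44011 UMIs, of which 1057 were Gzmd, 435 Gzme, 2247 Gzmf and 1181 Gzmg. The 4 copies made up 11.2% of its RNA. The second, with 59185 UMIs, held 1076, 303, 1076 and 1370 of them, or 6.46%, together with 209 UMIs of the macrophage list. The remaining one, in the blank hydrogel wound, had 17116 UMIs and held 65, 5, 457 and 9, or 3.13%. The proportions of the copies differed between the cells, with Gzmg ahead in the second cell and Gzmf in the others. All 3 were far deeper than the median member, at 7114 UMIs, and both cells of the Ndrg2-KO DC wound and the cell of the blank hydrogel wound had Scrublet scores in the highest 6% of their libraries. The other 6 positive cells held between 1 and 30 UMIs of the 4 copies. Among these, 1 cell of the blank hydrogel wound held 27 Gzme and 3 Gzmd UMIs, and another held 13 Gzmf and 52 Gzmc UMIs.

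**Figure D2:**
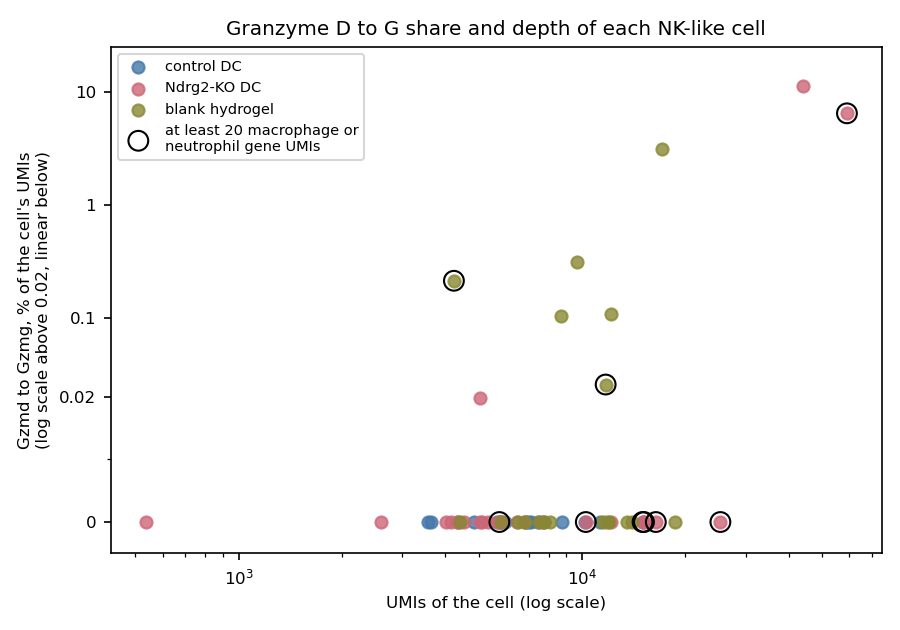
Share of Gzmd, Gzme, Gzmf and Gzmg in the UMIs of each of the 59 NK-like cells (percent, log scale above 0.02 and linear below) against the cell's total UMIs (log scale), colored by wound library, with rings around the 9 mixed cells. The 3 cells at 11.2%, 6.46% and 3.13% stand apart from the 6 cells at 0.311% or less.

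How far the reads could be told apart limits these values. The last 300 bases of the Gzmd, Gzme, Gzmf and Gzmg transcripts, the end that 3′ libraries read, were 89.1% to 95.4% identical. Of the 50-base windows in them, 87.3% to 93.6% were not found in transcripts of the other genes from Gzmb to Gzmg, against 100% for Gzmb and Gzmc. Gzmn, another gene of that stretch of chromosome 14, was not compared. The sum of the 4 copies is thus firmer than the share of each.

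The 3 cells with at least 100 UMIs of the 4 copies, a limit set after the data had been seen, were described against the 48 other members that were not mixed. The second of the 3, with 209 UMIs of the macrophage list, is itself mixed, and the part of its macrophage RNA in the ratios below was not tested beyond the values given without it. Beside Gzmd to Gzmg they carried more Gzmc, with 390, 242 and 21 UMIs (8861, 4089 and 1227 CPM) against 267 CPM in the pooled others, a log2 ratio of 4.35 (95% interval 4.03 to 4.67). With only the 2 of them that were not mixed, this was 4.65 (4.33 to 4.99). Prf1 reached 62, 119 and 3 UMIs, and Gzma stood at 9543, 2669.6 and 4674 CPM. The rule used Prf1 and Gzma, and each of the 48 others held Gzma, so no contrast is drawn for these genes.

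Genes of other roles also differed in these 3 cells. Spp1, which encodes the secreted matrix protein osteopontin, was counted 639, 323 and 50 times (log2 ratio 4.96, interval 4.66 to 5.28), and the ratio was 5.38 without the mixed cell. Itga1, the CD49a integrin chain of tissue-resident NK cells and type 1 innate lymphoid cells, was counted 12, 7 and 7 times (3.11, 1.97 to 4.39), and 3.63 without the mixed cell. Klrg1, a receptor of mature NK cells, was counted 6, 24 and 1 times (3.21, 2.15 to 4.40), with the 24 in the mixed cell. Cxcr6, a receptor of tissue-resident lymphocytes, was not detected in any member. Ifitm2, an interferon-induced membrane protein, was counted 61, 29 and 23 times against 3 times in all 48 others. Ifitm2 and Gpr141, a putative G protein-coupled receptor, were higher in CPM in each of the 3 cells than in any other unmixed member. They were named after their values were seen, among genes with at least 3 UMIs in each of these deep cells, a filter that favors genes high in them.

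Ccl5, a chemokine that draws T cells and monocytes, was at 0 UMIs in all 3 cells and present in 47 of the 48 others, which held 1918 UMIs of it. Klra4 was counted 0, 0 and 10 times and Klra8 4, 0 and 1 times in them. Both receptors are genes of the rule, which these 3 cells would pass on Gzmd to Gzmg alone while 44 of the 48 others passed it without any of the 4 copies, so their levels are not set against those of the others. Eomes was present in each of the 3, at 182, 101 and 58.4 CPM against 275 CPM in the others. All of this describes 3 cells that were picked by their granzyme counts and carries no test.

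**Figure D3:**
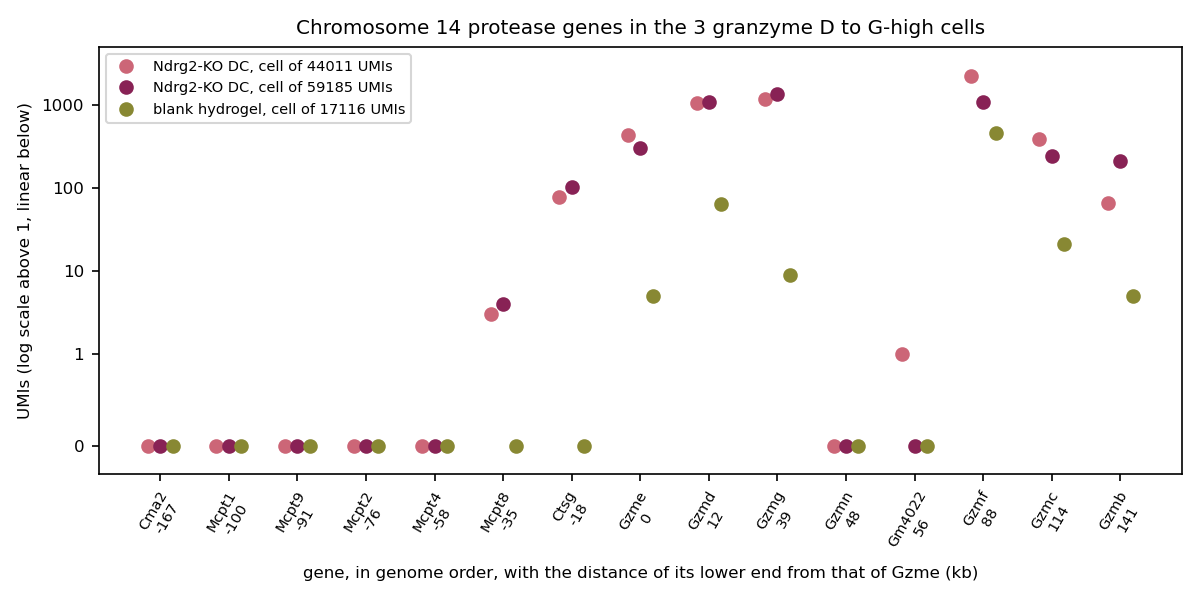
UMIs of the protease genes of chromosome 14 in the 3 granzyme D to G-high cells (1 color each, log scale above 1 and linear below), with genes in genome order and their distance from Gzme in kilobases. Counts run from Mcpt8 to Gzmb in the 2 cells of the Ndrg2-KO DC wound, with none for Gzmn, and the mast cell protease genes beyond Mcpt8 are at 0.

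Along chromosome 14 the counts were not even. Gzmn, which lies between Gzmg and Gzmf, was at 0 in every member. Ctsg, cathepsin G of myeloid granules, lies 17.7 kb from Gzme and was counted 79, 103 and 0 times in the 3 cells and 0 times in the 48 others. Mcpt8, a protease gene of basophils, was counted 3, 4 and 0 times. The proteases Cma2, Mcpt1, Mcpt9, Mcpt2 and Mcpt4 beyond it were at 0 in every member. Gzmb, at the other end, was seen in 46 of the 59 members and was counted 66, 211 and 5 times in the 3 cells.

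Receptors of the Ly49 family were spread unevenly over the cells. These lectin-like receptors bind class I MHC, and single NK cells are known to carry different subsets of them. Klra4 was detected in 9, 17 and 13 members and Klra8 in 7, 16 and 13. Of all 59 cells, 25 held both, 9 held neither, and the rest held 1 of them. The rule used these receptors, so their overlap is partly fixed by it. Klra7 was found in 27 cells, Klra9 in 19, Klra1 in 12 and Klra3 in 10, none of which the rule used. Klra5, Klra6 and Klra10 appeared in 1, 2 and 1 cells. With Klra10 left aside, a cell held a median of 2 of these Ly49 genes and at most 5, and 6 cells held none. Compared among Klra1, Klra3, Klra4, Klra7, Klra8 and Klra9, the transcript ends of Klra3 and Klra9 were unique in 59.4% of windows. That of Klra8 was unique in 80.9%, so counts of these 3 are uncertain.

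Receptors of the NKG2 and NKR-P1 families were found in 19 to 49 cells. Klrd1 (CD94), the partner chain of the NKG2 receptors, was in 49 cells, and Klrk1 (NKG2D), which recognizes stress ligands, was in 46. Klrc1, the inhibitory partner of CD94, was in 19 cells and Klrc2, an activating one, in 24. Klrb1b, an inhibitory NKR-P1 receptor, was in 32 cells and Klrb1c (NK1.1) in 40. Klrb1c, a gene of the rule, was at 109.7 (56.7 to 192), 124 (86.4 to 172) and 125 (80.1 to 186) CPM in the 3 wounds. Ncr1 (NKp46), an activating receptor of NK cells, was in 18 cells and Klrg1, an inhibitory receptor of mature NK cells, in 10.

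To place these cells among wound lymphocytes, UMIs were summed per library over the NK-like cells and over the T cells and compared with edgeR's quasi-likelihood test, with library as a block and without the 12 genes of the rule. Of 5783 genes, 80 (1.38%) were higher in NK-like cells and 153 (2.65%) lower, 4.03% in all, at a Benjamini-Hochberg adjusted p under 0.05. Since both kinds of cell were chosen by their own UMIs, genes that go with those of the rule had to differ. The p-values below therefore measure only how alike the difference was over the 3 libraries. The T cell sums also carried RNA of other cells, with fibroblast markers at 5862, 6205 and 392 CPM, erythroid markers at 2266, 10080.2 and 68.2 CPM, B cell markers at 59.8, 5544 and 76.2 CPM, neutrophil markers at 108, 4090 and 5442 CPM and macrophage markers at 783, 1484 and 1363 CPM. By the limit of 20 macrophage or neutrophil UMIs, 4, 28 and 9 of the T cells were mixed, and beyond the counts without mixed cells given below their part in the calls was not tested. Of 68 named genes that were called, 36 were still called without the control DC library. Among those given below, the edgeR adjusted p was then 0.0541 for Il7r, 0.0566 for Il2rb, 0.0568 for Gzmb, 0.0694 for Khdc1a, 0.0832 for Csf1, 0.0957 for Serpinb9, 0.119 for Car2, 0.126 for Lcp2, 0.151 for Fasl, 0.167 for Serpinb6b, 0.232 for Klrd1 and 0.280 for Klrk1. Of these, Lcp2, Fasl, Serpinb6b, Klrd1 and Klrk1 were also lost without the blank hydrogel library (edgeR adjusted p from 0.0607 to 0.194). Without the Ndrg2-KO DC library Igkc (0.102) and again Lcp2 (0.0622) were lost.

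Of the 10 NK markers, 8 were higher in NK-like cells and 0 lower, and the median log2 ratio of the list was 2.63 against -0.03 over all genes tested. Of these 8, Nkg7 (edgeR adjusted p = 0.218), Il2rb, Klrd1 and Klrk1 were not called without the control DC library. Eomes stood at 274, 184 and 208 CPM against 0.842, 4.31 and 5.69 in T cells, and the log2 ratio was 5.89 ± 0.45 (SE, edgeR adjusted p = 0.000428, higher in each of the 3 libraries). Ncr1 was at 91.4, 46.1 and 52.1 CPM against 0, 1.08 and 0 (6.54 ± 0.76, edgeR adjusted p = 0.00242). Txk, a kinase of the Tec family, gave 3.25 ± 0.24 and Il2rb, the interleukin 2 and 15 receptor chain, 1.49 ± 0.19. Tbx21 (T-bet, 2.06 ± 0.54, edgeR adjusted p = 0.0828) and Xcl1 (lymphotactin, 2.88 ± 0.68, edgeR adjusted p = 0.120) did not pass.

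Among 15 tested NK receptor genes, 7 were higher and 0 lower, with a median of 2.52. Klrb1b gave 4.44 ± 0.29 (edgeR adjusted p = 0.000383), Klri2, a CD94-like receptor, 5.27 ± 0.50, Klre1, another of that kind, 3.87 ± 0.38 and Klra9 4.79 ± 0.50. Klrd1 and Klrk1, which some T cells also carry, gave the smaller values of 1.66 ± 0.33 and 1.56 ± 0.35. Klra7 missed the threshold at 4.11 ± 0.76 (edgeR adjusted p = 0.0663).

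Of 13 tested genes of cytotoxic granules and death ligands, 6 were higher and 0 lower, and without mixed cells 7 were higher and 2 lower. Gzmb, the granzyme that activates caspases, was at 1060.3, 1265 and 422 CPM against 127, 413 and 181 in T cells (1.99 ± 0.35, edgeR adjusted p = 0.0237). In the Ndrg2-KO DC wound 2 cells held 77.6% of the 357 Gzmb UMIs of the members, and the median cell held 348 CPM. Serpinb9, Serpinb9b and Serpinb6b, members of a serpin group with granzyme inhibitors among them, gave 2.08 ± 0.29, 4.64 ± 0.57 and 2.01 ± 0.35. Fasl, the death ligand of the Fas receptor, gave 1.61 ± 0.33. Srgn, the proteoglycan core of granules, was not called at -0.71 ± 0.17 (edgeR adjusted p = 0.0585), nor was Gzmc at 3.63 ± 1.33 (0.412). In receptor signaling, 3 of 15 tested genes were higher and 3 lower, and without mixed cells 5 were higher and 4 lower. The adapters Tyrobp (DAP12, 2.56 ± 0.27) and Fcer1g (2.39 ± 0.26) were higher with Txk, and the T cell signaling genes Lat (-4.37 ± 0.41) and Lcp2 (-1.44 ± 0.31) were among the lower ones.

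**Figure D4:**
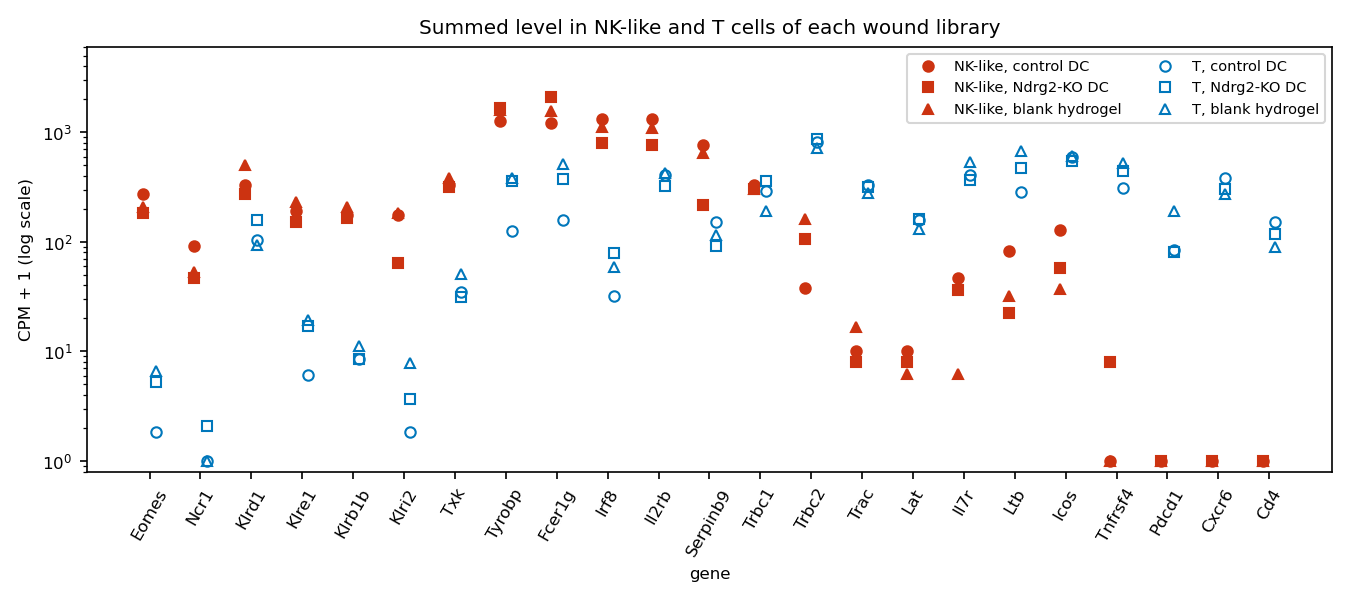
Level of named genes (CPM plus 1, log scale) in the summed NK-like cells (filled) and T cells (open) of each wound library, 1 symbol per library. Eomes and Ncr1 lie higher in the NK-like cells and Trac lower in each library, while the symbols of Trbc1 overlap, at 302 to 329 CPM and 189.9 to 359 CPM.

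The T cell receptor genes did not move together. Trac, the alpha constant chain, was at 9.14, 7.09 and 15.6 CPM against 329, 315 and 279.7 (-4.82 ± 0.37, edgeR adjusted p = 0.000428), and Trbc2 gave -2.96 ± 0.38. Trbc1, the other beta constant chain, was at 329, 305 and 302 CPM against 289, 359 and 189.9, was found in 49 of 59 NK-like cells, and gave 0.24 ± 0.25 (edgeR adjusted p = 0.779). Of the 10 genes of the alpha-beta T list, 8 were lower and 0 higher. Cd4, Cd5, Cd6 and Bcl11b were at 0 UMIs in all NK-like cells, and the T cell level was at least 23.6-fold, 21.2-fold, 23.3-fold and 22.2-fold higher (against a floor of 3 UMIs over the pooled cells).

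Of 19 cytokine and chemokine receptors, 2 were higher and 8 lower. Il2rb was among the higher ones. Il7r, the interleukin 7 receptor of T cells and innate lymphoid cells, was at 45.7, 35.4 and 5.21 CPM against 404, 369 and 529.9 (-3.92 ± 0.48). Cxcr6, a receptor of tissue-resident lymphocytes, was at 0 in all 59 cells and at least 62.6-fold higher in T cells. In the list of type 1 innate lymphoid cell and residency genes, 0 of 5 tested were higher, and Cxcr6 and Itgae were lower. Itga1 (1.47 ± 0.59, edgeR adjusted p = 0.284) and Cd69 (-0.40 ± 0.25, 0.558) did not pass. In the list of circulating NK genes, 5 of 6 tested were not called, and without mixed cells 1 was higher and 1 lower.

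In the transcription factor list, Eomes and Irf8 (4.33 ± 0.40) were higher and Ikzf2 (-2.77 ± 0.38) lower of 16 tested. Without mixed cells 4 genes of the list were higher and 3 lower. Irf8, an interferon regulatory factor known from myeloid and NK cells, was at 1307, 794 and 1109 CPM against 31.2, 78.0 and 58.0. Of 10 checkpoint and costimulation genes, 6 were lower and 0 higher, among them Icos (-3.10 ± 0.35), Ctla4 (-3.60 ± 0.46) and Tnfrsf4 (OX40, -6.95 ± 0.53). Of 14 cytokines and chemokines, Ltb and Csf1 were lower and 0 higher with all members. Without mixed cells 5 genes of this list were higher and 2 lower. Ccl5 was at 8035, 1917 and 3364 CPM against 719, 783 and 486 in T cells, but did not pass (2.58 ± 0.51, edgeR adjusted p = 0.110). The lists of cell cycle and interferon-stimulated genes held 0 calls among 10 and 8 tested, glycolysis held 1 lower among 12, and immediate early genes held 1 higher and 1 lower among 16. Without mixed cells the cell cycle and interferon-stimulated lists held 1 lower each.

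By rule, the genes with the largest log2 ratios were also looked at. On the NK side they included Car2, a carbonic anhydrase (6.01 ± 0.84), Khdc1a (5.27 ± 0.64) and Nrgn, a calmodulin-binding protein (4.35 ± 0.47). Tmsb15a, a thymosin that binds actin, had 0 UMIs in T cells, but 384 of its 397 UMIs came from the Ndrg2-KO DC wound and 76.0% of those from 1 cell. On the T cell side they were Cxcr6, Cd4, Cd5, Cd6, Bcl11b, Pdcd1, Ass1, Inpp4b and Plpp3, each at 0 in the NK-like cells, and Igkc, an antibody chain of B cells. Igkc was counted once in the NK-like cells and reached 3403 CPM in the T cells of the Ndrg2-KO DC wound, the library where the B cell list summed to 5544 CPM. Without cells holding at least 20 macrophage or neutrophil UMIs, 156 genes were higher and 242 lower of 4529 tested, and 185 of the 233 calls were kept.

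Between the wounds, NK-like cells were compared gene by gene without a test. Among genes with at least 50 UMIs in a pair of sums, a gene was counted when its CPM differed at least 2-fold. For Ndrg2-KO DC over control DC, 141 of 922 genes were higher (15.3%) and 65 lower (7.05%), 22.3% in all. When the sums were scaled by the median ratio instead, which moved the median of all genes from 0.22 to 0.03 on the log2 scale, 110 were higher and 90 lower. For blank hydrogel over control DC, 29 of 670 were higher (4.33%) and 14 lower (2.09%), 6.42% in all, and 22 and 17 after scaling. For Ndrg2-KO DC over blank hydrogel, 111 of 1146 were higher (9.69%) and 55 lower (4.8%), 14.5% in all. These 3 comparisons share their cells in pairs, since each wound enters 2 of them.

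Both comparisons with the Ndrg2-KO DC wound had fewer genes past 2-fold without the mixed cells, 7 of which were in the Ndrg2-KO DC wound and 2 in the blank hydrogel wound. With the minimum of 50 UMIs applied anew, 39 genes were higher and 23 lower of 533 for Ndrg2-KO DC over control DC, and 24 and 24 of 687 for Ndrg2-KO DC over blank hydrogel. Over the same genes as before, some of them then with few UMIs, 89 were higher and 60 lower of 922 in the first pair and 56 and 70 of 1146 in the other. For blank hydrogel over control DC the counts were 25 and 14 of 636 with the minimum applied anew, and 28 and 16 over the same 670 genes. H2-Eb1 and H2-Ab1, chains of class II MHC, had log2 ratios of 7.13 and 5.89 for Ndrg2-KO DC over control DC. Without the mixed cells, 2 UMIs of each were left in the Ndrg2-KO DC wound, beside 1 and 2 in the control DC wound. Lyz2, lysozyme of myeloid cells, was at 0 UMIs in the control DC members and 663 in the Ndrg2-KO DC members, at least 85.7-fold higher, and 4 UMIs were left without the mixed cells. S100a8, a neutrophil alarmin, was counted 493 times in the blank hydrogel and 2 times in the control DC wound, a log2 ratio of 7.13, and 6 UMIs were left in the blank hydrogel wound without the mixed cells. The values of these genes in the sums thus turned on 9 cells.

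**Figure D5:**
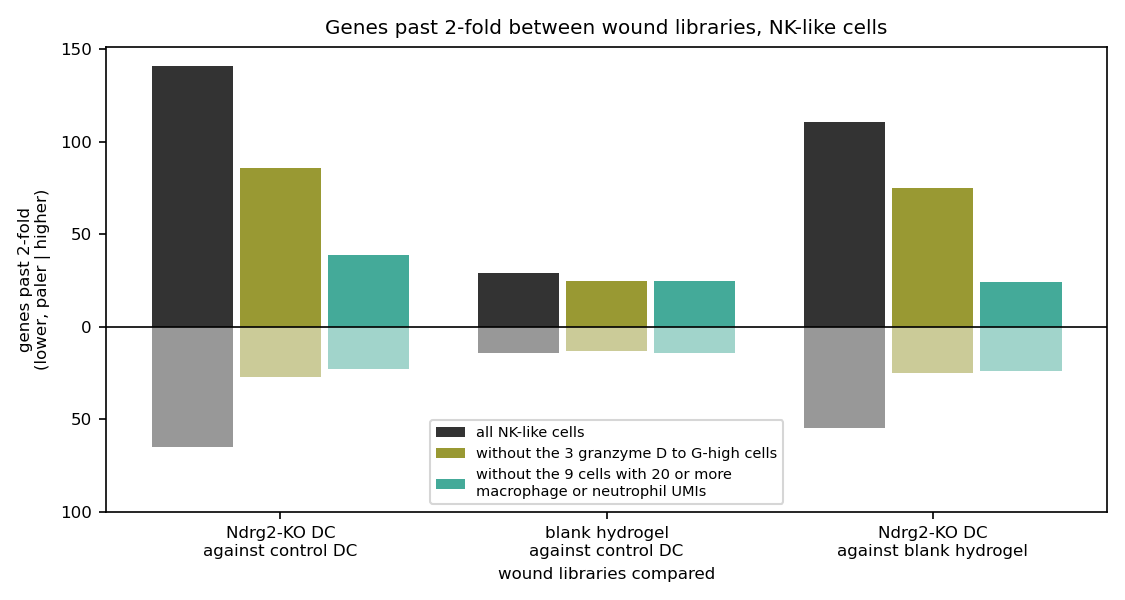
Number of genes at least 2-fold higher (upward bars) or lower (downward, paler bars) between the NK-like cells of each pair of wound libraries, with all cells, without the 3 granzyme D to G-high cells and without the 9 mixed cells. The Ndrg2-KO DC over control DC count is 206 of 922 genes with all cells and 62 of 533 without the 7 mixed cells of that pair.

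Ccl5 was lower in the NK-like cells of both other wounds than in the control DC wound. Cell by cell it ran from 2875 to 34017 CPM with a median of 5321 in the control DC wound, where 15 of 15 cells held it. It ran from 0 to 24803 with a median of 1866 in the Ndrg2-KO DC wound (21 of 25 cells) and from 0 to 17159.5 with a median of 927 in the blank hydrogel wound (16 of 19). The ranges overlapped. For the sums, the log2 ratio to control DC was -2.07 (-2.22 to -1.91) for Ndrg2-KO DC and -1.26 (-1.40 to -1.11) for blank hydrogel. Without the mixed cells these were -1.44 and -1.15, and as means over cells, each cell weighing the same, -0.891 and -0.999. In cells with macrophage markers, 10.4%, 6.32% and 5.31% held a Ccl5 UMI at median depths of 12632, 10808 and 11011 UMIs, and in cells with fibroblast markers 6.62%, 3.09% and 3.31% did. The share was highest in the control DC wound in these 2 kinds of cell, but not in cells with neutrophil markers (1.80%, 2.24% and 1.89%) or in T cells (20.3%, 23.4% and 24.2%). The part of such RNA in the difference was not tested.

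Serpinb9 was lower in the Ndrg2-KO DC wound, at 216 CPM against 768 in the control DC wound, with a log2 ratio of -1.83 (-2.33 to -1.34), and -1.21 without mixed cells. The median cell held 622, 148 and 682 CPM in the 3 wounds, and the ranges overlapped. Rgs2, which dampens G protein signaling, was at 145 against 622 CPM (-2.10, -2.69 to -1.52), and -2.58 without mixed cells. Nr4a3, an orphan nuclear receptor induced on activation, was at 152 against 594 CPM (-1.96, -2.55 to -1.39), and -1.74 without mixed cells. Nr4a3 was also lower in the blank hydrogel wound (-1.37, -1.96 to -0.80). Of 16 immediate early and stress genes listed, 10 were compared between Ndrg2-KO DC and control DC, with 4 higher and 2 lower beside 22.3% of all genes past 2-fold, and 0 higher and 4 lower without the mixed cells. The median log2 was 0.59 with all members and -0.60 without the mixed ones. The sign of this list's median thus turned on those cells.

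Gzmb was lower in the blank hydrogel than in the control DC wound, at 422 (335 to 524) against 1060.3 (876 to 1272) CPM, with a log2 ratio of -1.33 (-1.76 to -0.91). The median cell held 173 against 444 CPM and the ranges overlapped. Xcl1, made by 7 and 6 cells, gave -1.36 (-2.14 to -0.60) but 0.38 where at least 4 of the 9 genes of the rule were required, and 1 cell held most of its UMIs in each wound, 57.7% and 52.6%. Tmsb15a (6.22) and Ly6c2 (5.91), a surface protein of monocytes and some lymphocytes, were higher in the Ndrg2-KO DC than in the control DC wound. For Ly6c2, 1 cell held 93.5% of the UMIs, and for Tmsb15a the log2 ratio was 0.61 without the 3 granzyme D to G-high cells.

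Of the 10 NK markers that the rule did not use, 8 had enough UMIs to be compared between the wounds. Between Ndrg2-KO DC and control DC 0 of 8 differed at least 2-fold, beside 22.3% of all genes, and the median log2 ratio was -0.45 against 0.22 over all genes. Without mixed cells the 2 medians were 0.14 and 0.10. Between blank hydrogel and control DC, 1 of 8 (Xcl1) was lower, beside 6.42% of all genes, with a median of 0.14 against 0.09. Between Ndrg2-KO DC and blank hydrogel 0 of 8 differed 2-fold, with a median of -0.51 against 0.05, and without mixed cells 1 of 8 (Xcl1) was higher, with a median of -0.03 against 0.00. No test of these 8 genes against all genes was made. Of 5 and 6 NK receptor genes compared with control DC, 0 differed 2-fold in either pair.

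Cycling cells were few. UMIs of at least 3 of 12 cell cycle genes were found in 0 of 15, 3 of 25 and 4 of 19 NK-like cells. The summed level of the 12 genes was 73.1, 485 and 1083 CPM, against 719, 474 and 924 CPM in T cells. The cell of the Ndrg2-KO DC wound with the most of these UMIs, 100, was a mixed one with 119 macrophage UMIs. Without mixed cells 2 of 18 cells of that wound held at least 3 of the genes, and their sum was 259 CPM there and 1169.9 CPM in the blank hydrogel wound. Stmn1, a tubulin regulator of dividing cells, had a log2 ratio of 3.77 (2.37 to 5.68) for blank hydrogel over control DC, with 56.25% of its UMIs in 1 cell. The histone gene Hist1h1b had 70 UMIs in the blank hydrogel wound and 0 in the control DC wound, at least 13.3-fold higher, and 88.6% of the UMIs came from 1 cell. In the blank hydrogel wound, most UMIs of each of these genes thus came from 1 cell. Stmn1 was found in 8 members of that wound and 3 of the control DC wound, and Hist1h1b in 3 and 0.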

How the data were processed

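Single-cell RNA was captured from digested wounds and from cultured DCs with a 10x Genomics 3′ kit. The authors made the deposited matrices of UMI counts per gene and barcode with Cell Ranger (version 6.0.0 for the wounds and 3.1.0 for the cultures, per the file headers), and the counts were not normalized. The submitters' processing notes also name Seurat 3.1.1, and no annotation of cells was used here. Gene coordinates and promoter sequences are those of GRCm38, from reference tables and not from the files. The methods name mm10 as the alignment build and the processing notes mm9.

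Barcodes were kept, doublets included, where 300 or more genes were detected, the total was below 100000 UMIs and mitochondrial genes made up less than 10% of it. Scrublet scores were computed for each library (scanpy 1.11.5). Its automatic threshold marked 17, 2 and 0 wound cells, under 0.5% in the 2 larger libraries, so the highest 6% of scores served as an alternative. The members' median depths were 6957, 5821 and 9647 UMIs, and 1 UMI in their sums was worth 9.14, 3.54 and 5.21 CPM. The 10 hashtag features of each matrix held 0 UMIs and stayed out.

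CPM is UMIs per 1000000, summed over the cells of a library. CPM intervals are exact Poisson, shares Clopper-Pearson and ratios conditional binomial (95%), and a count of 0 was replaced by 3 UMIs over the group. NK-like and T cell sums were compared with edgeR 4.0.16 (R 4.3.3, quasi-likelihood, TMM, filterByExpr, Benjamini-Hochberg over all genes tested), and with DESeq2 1.42.0 as an alternative. The pairing is by library, since both sums of a library come from the same cell suspension, and the library was a block in the fit. The 3 sums of each kind come from wounds of different treatments, so the p-values measure the spread between these libraries. Scripts were tested on simulated data. The named genes were the members of lists of NK, T cell and granule genes with at least 20 UMIs, the 8 genes with the largest ratio in each direction between libraries, and the 10 in each direction against T cells. The members and the lists were chosen with earlier results of these data known. A few genes of the lists are not reported here.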

Additional observations from a re-analysis of the deposited data

How the results depend on the processing

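The limits on the NK-like cells were 1 library per wound and 59 cells, of which 1 to 3 carried many of the summed values. The share of NK-like cells was 0.770%, 0.440% and 0.558% without drawing cells to 1000 UMIs, as well as 0.433%, 0.253% and 0.347% with cells drawn to 2000 UMIs and 0.103%, 0.0880% and 0.118% with 500, against 0.156%, 0.125% and 0.150% with 1000. The intervals on the 3, 7 and 5 cells at 1000 UMIs are wide, and the values lay within them under each setting but the one without drawing. The count of 206 genes past 2-fold between Ndrg2-KO DC and control DC became 699 at a minimum of 20 UMIs, 91 at 100 UMIs, 83 without the highest 6% of Scrublet scores, 62 without mixed cells (89 higher and 60 lower over the same 922 genes) and 113 without the 3 granzyme D to G-high cells. The 166 between Ndrg2-KO DC and blank hydrogel became 552, 76, 65, 48 and 100 under the same 5 settings. The 43 between blank hydrogel and control DC became 251 and 18 at minimums of 20 and 100 UMIs, and 24 with at least 4 of 9 genes required. As means over cells, the split for Ndrg2-KO DC over control DC was 124 higher and 33 lower, and for Ndrg2-KO DC over blank hydrogel 90 and 28. Without mitochondrial and ribosomal protein genes it was 162 and 46 for the former. The settings that leave out the mixed cells or the granzyme D to G-high cells were chosen after the data had been seen. The cause of these shifts was not tested.

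The 233 edgeR calls between NK-like and T cells became 701 with no filter on low counts, when 15703 genes were tested, 65 with each cell drawn to 1000 UMIs, when 714 were tested, and 398 without mixed cells. DESeq2 made 213 calls, of which 159 were among the 233. Leaving out 1 library gave 71 to 314 calls, with the lowest number without the control DC library. Without the library block (no pairing) 234 genes were called, 183 of them among the 233. The 68 named genes that were called kept their direction wherever a setting tested them, past the threshold in 651 cases and not in 100, of which 32 were without the control DC library. All 68 were not tested everywhere, since 24 were tested with each cell drawn to 1000 UMIs, 60 without the highest Scrublet scores and 61 without mixed cells. For genes compared between libraries, 424 values stayed within their counting interval, 68 moved beyond it and 6 changed sign, among values with over 3 UMIs in a sum. Without mixed cells these were Cd74 (-2.30 for Ndrg2-KO DC over control DC and -2.62 over blank hydrogel), and H2-Ab1 (-0.94) and S100a9 (0.14) for Ndrg2-KO DC over blank hydrogel. In 7 more cases without mixed cells, both sums held at most 3 UMIs and no ratio is given, among them H2-Ab1 for Ndrg2-KO DC over control DC and H2-Eb1 and Slpi for Ndrg2-KO DC over blank hydrogel. With at least 4 of 9 genes they were Xcl1 (0.38) for blank hydrogel over control DC and Hist1h2ae (1.48) for Ndrg2-KO DC over blank hydrogel. For blank hydrogel over control DC, Wfdc17 fell to 4 against 0 UMIs without mixed cells and to 6 against 0 with at least 4 of 9 genes, and Hist1h2ae to 4 against 0 with the latter, so that the direction was kept by the counts but no bound above 1-fold was left. The planned comparison of granzyme D to G-positive with other NK-like cells was not run, since it needed at least 10 cells per arm in each library and 0, 3 and 6 were positive.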

Other observations

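Lists of further lymphoid cells, of mast cells and of basophils were summed in the NK-like cells. Gamma-delta T cell genes summed to 91.4, 39.0 and 67.7 CPM for control DC, Ndrg2-KO DC and blank hydrogel, against 69.1, 20.5 and 629 CPM in T cells. Group 2 innate lymphoid cell genes summed to 54.8, 124 and 5.21 CPM, against 334, 914 and 869 CPM in T cells. Without mixed cells the Ndrg2-KO DC sum was 81.4 CPM for the gamma-delta list and 22.2 CPM for the group 2 list. Mast cell genes summed to 73.1, 70.9 and 88.5 CPM and basophil genes to 0, 24.8 and 0 CPM. Interferon-stimulated genes summed to 338, 783 and 406 CPM in NK-like cells and to 1021, 2262 and 1429 CPM in T cells, and 592 CPM remained in the Ndrg2-KO DC wound without mixed cells. Glycolysis genes summed to 3227, 3001 and 2182 CPM, below the 3624, 4517 and 3739 CPM of T cells in each library.

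Between the Ndrg2-KO DC and blank hydrogel wounds, Ctsg was counted 182 times in the NK-like cells of the former and 0 times in the latter, at least 41.3-fold higher, and all 182 UMIs lay in the 2 granzyme D to G-high cells of that wound. Slpi, a protease inhibitor of neutrophils and epithelium, had a log2 ratio of -3.19 (-4.32 to -2.21) between these wounds, and 1 UMI was left in each without mixed cells.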
